A study of Mus musculus with 2 samples.

Results

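The genes described here are 10 genes of the nuclear lamina and the inner nuclear membrane, taken by name from the 31053 genes of the expression matrix. They are the lamin genes Lmna, Lmnb1 and Lmnb2, the lamin B receptor gene Lbr, Emd, Tmpo and Banf1, which act together at the nuclear margin, and Sun1, Sun2 and Syne2, which link the nucleus to the cytoskeleton. They were taken by name, with no threshold on a measured value, and all 10 were found in the matrix. Their transcripts were counted in sorted cells of adult mouse retinas, as unique molecular identifiers (UMIs), each of which marks 1 captured RNA molecule.

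The study asked how anchoring of heterochromatin by lamin A or by Lbr affects gene expression in rod photoreceptors. Retinas of newborn mice had been electroporated with the plasmid pCIG2, whose promoter is not specific to rods and which carries the green fluorescent reporter EGFP alone (Control), or with pCIG2 carrying lamin A (Lmna) or Lbr as well (Lbr). All 3 groups thus share the electroporation and the reporter, and viable fluorescent cells were sorted in adulthood. Cells of each group were stained with a lipid-anchored sample tag (MULTI-seq), pooled and captured in 1 run of the 10x Genomics Chromium platform. Deposited were 2 libraries of this 1 pool, one of transcripts and one of tags. The retinas were wild type, and the sources used here state neither their strain nor how many retinas stand behind a tag. Since the labels pair no tag with a group, the tags keep their numbers and none is called Control, Lmna or Lbr.

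In most cells lamin A and Lbr are alternative anchors that hold heterochromatin against the nuclear margin. A-type lamins (lamin A and lamin C, both made from Lmna) and B-type lamins (from Lmnb1 and Lmnb2) form the meshwork under the inner nuclear membrane. Mouse rods normally lack lamin A, reduce Lbr once they differentiate, and gather their heterochromatin in the centre of the nucleus. The library reads transcript ends, and the plasmids place a reporter behind the inserted gene, so these counts bear on the plasmid transcripts only in part. They also cannot separate lamin A from lamin C. EGFP was not among the genes of the matrix.

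The sequences that define the comparison between groups are the oligonucleotides of the sample tags, printed 5′ to 3′ as the labels give them, with the 8 bases that identify the tag in capitals, a shared primer site before them and a poly(A) stretch after them.
tag 1: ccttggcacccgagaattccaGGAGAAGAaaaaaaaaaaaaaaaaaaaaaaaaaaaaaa
tag 2: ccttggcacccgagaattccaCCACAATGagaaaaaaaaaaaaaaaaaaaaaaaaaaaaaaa
tag 3: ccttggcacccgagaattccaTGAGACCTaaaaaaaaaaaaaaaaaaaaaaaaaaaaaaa
The tags of each pair differ at 4 to 6 of their 8 bases.

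The expression matrix held 2487110 UMIs, and 645 of its barcodes were also in the tag matrix. Barcodes were clustered without the 10 genes. They fell into 690 rod-like barcodes (median 2431 UMIs), 38 bipolar-like (8994), 89 glia-like (1167) and 17 microglia-like barcodes (3372). The labels call the cells rods, and all 16 rod markers were detected in the rod-like class, at 108864 UMIs per 1000000 (CPM) against 795 CPM in the bipolar-like class. Glia-like barcodes had 50.1% mitochondrial UMIs, and 80 of the 89 were not in the tag matrix. Cones had no cluster of their own. The rod-like class held 11 barcodes with UMIs of 4 or more cone markers. These 11 held 0 UMIs of Lmna and of Lbr, which still allows a share of up to 27.3%, so absence from cones is not shown. Each class or tag is 1 pool of cells from 1 run, so nothing was tested, and all intervals are exact 95% intervals that cover counting error only. They are too narrow for UMI sums, because UMIs of 1 gene came in groups: genes seen in 20 to 100 rod-like barcodes had a median of 3.11 UMIs per barcode with a UMI. A count of 0 is taken to allow up to 3 counts. Fold values against that limit have the same weakness, since 3 UMIs can lie in 1 barcode. The number or share of barcodes with a UMI is therefore given beside most sums.

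Across the cell classes, transcripts of these genes were sparse in every class. At least 1 of the 10 genes had a UMI in 34.1% of rod-like barcodes (235 of 690, interval 30.5% to 37.7%), in 68.4% of bipolar-like (26 of 38, 51.4% to 82.5%), in 7.87% of glia-like (7 of 89, 3.22% to 15.5%) and in 47.1% of microglia-like barcodes (8 of 17, 23.0% to 72.2%). These shares followed the order of the classes' median depths. In CPM, the summed level was instead highest in rod-like barcodes, at 431 CPM (402 to 461), against 311 CPM (192 to 475) in microglia-like, 152 CPM (113 to 201) in bipolar-like and 148 CPM (91.7 to 226) in glia-like barcodes. The intervals of rod-like and microglia-like barcodes overlapped, as did those of the 3 other classes among themselves. CPM is taken over all UMIs, mitochondrial ones included. Their median share was 50.1% in glia-like and 16.1% in rod-like barcodes, which lowers the glia-like levels beside those of rods.

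**Figure D1:**
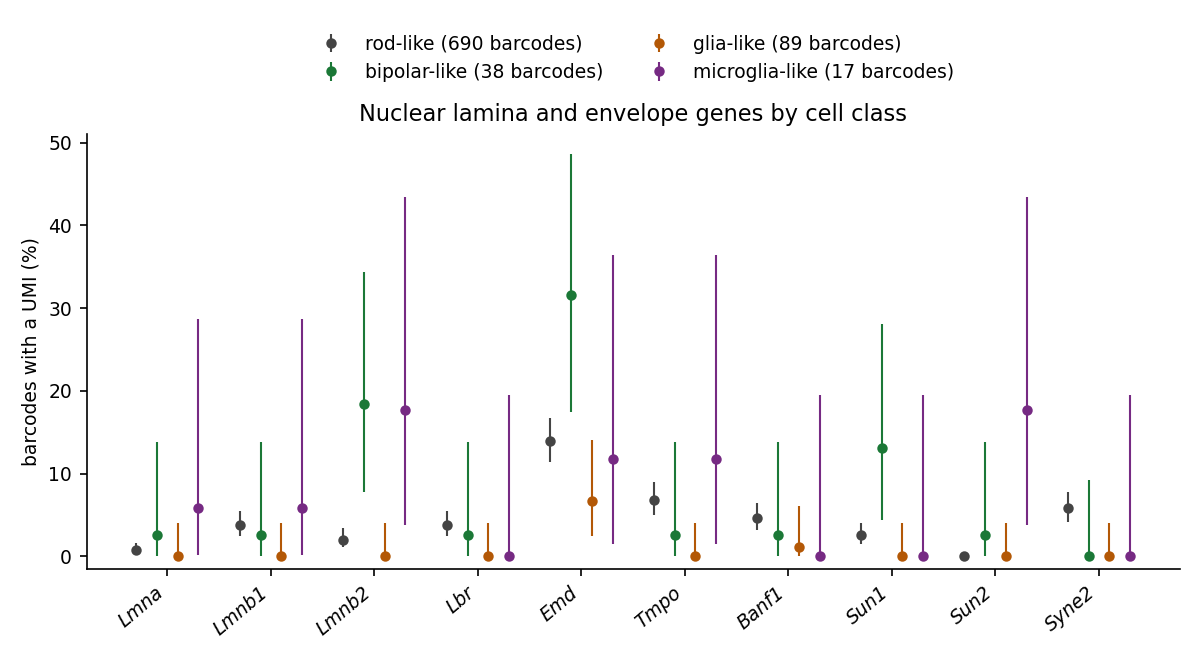
Percentage of barcodes with at least 1 UMI of each gene (y axis) in the 4 cell classes. Points are shares and bars exact 95% intervals. Sun2 is at 0 in the 690 rod-like barcodes, and Emd is the gene seen in most rod-like barcodes, in 96 of them.

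Lmna (ENSMUSG00000028063, chromosome 3, 88480147 to 88509956, minus strand, mm10) was found in 7 barcodes of the whole pool. In rod-like barcodes it had 46 UMIs in 5 of 690 barcodes (0.725%, 0.236% to 1.68%), or 23.5 CPM. It had 4 UMIs in 1 of 38 bipolar-like barcodes, 2 UMIs in 1 of 17 microglia-like barcodes and 0 in 89 glia-like barcodes, where a count of 0 allows a share of up to 3.37%. The shares of the 4 classes were not distinguishable at this depth. The microglia-like barcode was a deep one, with 17791 UMIs. In the glia-like class, 0 UMIs still allows 21.2 CPM, close to the level in rods.

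The B-type lamin genes were found in more barcodes. Lmnb1 (ENSMUSG00000024590) had 97 UMIs in 26 of 690 rod-like barcodes (3.77%, 2.48% to 5.47%), 2 UMIs in 1 bipolar-like barcode, 1 UMI in 1 microglia-like barcode and 0 in glia-like barcodes. Its log2 ratio of bipolar-like over rod-like barcodes was -2.68 (-6.06 to -1.11). Lmnb2 (ENSMUSG00000062075, chromosome 10, 80901203 to 80918245, minus strand) was seen in larger shares of the deeper classes. It had 1 UMI in each of 7 bipolar-like barcodes (18.4% of 38, 7.74% to 34.3%), of which 6 had more than 8000 UMIs, and 1 UMI in each of 3 microglia-like barcodes (17.6% of 17, 3.80% to 43.4%). In rod-like barcodes its share was 2.03% (14 of 690, 1.11% to 3.38%), below both intervals. Thinned to 1000 UMIs per barcode, it was in 6 of 622 rod-like (0.965%), 0 of 36 bipolar-like and 1 of 13 microglia-like barcodes (7.69%). In CPM the intervals overlapped, with 15.9 CPM (10.8 to 22.5) in rod-like, 21.7 CPM (8.74 to 44.8) in bipolar-like and 44.4 CPM (9.15 to 129.7) in microglia-like barcodes.

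Lbr (ENSMUSG00000004880, chromosome 1, 181815335 to 181843046, minus strand), a membrane protein that binds B-type lamins and heterochromatin and is also a sterol reductase, was found almost entirely in rod-like barcodes. There it had 121 UMIs in 26 of 690 barcodes (3.77%, 2.48% to 5.47%), or 61.9 CPM (51.3 to 73.9). It had 1 UMI in 1 bipolar-like barcode and 0 in glia-like and microglia-like barcodes. Against the 3 counts that 0 allows, the level in rods was 2.92-fold that allowed in glia-like and 1.39-fold that allowed in microglia-like barcodes, and the log2 ratio of bipolar-like over rod-like barcodes was -3.74 (-9.63 to -1.81). With 4.65 Lbr UMIs per positive rod-like barcode, 1 barcode like these would exceed the 3 counts, so both fold values are weak bounds. These class differences rested on the rods of 1 tag, described further on: tag 3, with 36 rods, held 72 of the 121 UMIs. Rods of tags 1 and 2 had 10.5 and 19.6 CPM without a filter, below the 21.2 and 44.4 CPM that 0 allows in glia-like and microglia-like barcodes.

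Among the proteins that bind chromatin at the margin, emerin (Emd), a LEM domain protein of the inner membrane, was seen in most barcodes. Emd (ENSMUSG00000001964, chromosome X, 74254687 to 74261548, plus strand) had a UMI in 12 of 38 bipolar-like (31.6%, 17.5% to 48.7%), 96 of 690 rod-like (13.9%, 11.4% to 16.7%), 2 of 17 microglia-like (11.8%, 1.46% to 36.4%) and 6 of 89 glia-like barcodes (6.74%, 2.51% to 14.1%). The bipolar-like share lay above that of rods, whereas the other 3 overlapped. Thinned to 1000 UMIs per barcode, the bipolar-like share was 8.33% (3 of 36), within the interval of the rod share of 7.4% (46 of 622, 5.47% to 9.74%). The order of the levels was different: 141 CPM (86.2 to 218) in glia-like, 62.9 CPM (52.3 to 75.0) in rod-like, 52.8 CPM (30.7 to 84.5) in bipolar-like and 29.6 CPM (3.58 to 107) in microglia-like barcodes. The glia-like level rested on 20 UMIs, 11 of them in 1 barcode.

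Tmpo (ENSMUSG00000019961, chromosome 10, 91147571 to 91181315, minus strand), which encodes the LAP2 proteins that bind lamins and Banf1, had 146 UMIs in 47 of 690 rod-like barcodes (6.81%, 5.05% to 8.96%). It had 2 UMIs in 1 bipolar-like barcode, 5 UMIs in 2 microglia-like barcodes and 0 in glia-like barcodes. The log2 ratio of bipolar-like over rod-like barcodes was -3.27 (-6.65 to -1.71), whereas that of microglia-like barcodes was 0.12 (-1.66 to 1.24). Banf1 (ENSMUSG00000024844, chromosome 19, 5364638 to 5367168, minus strand), the small DNA-binding protein that LEM domain proteins hold, had 75 UMIs in 32 rod-like barcodes (4.64%, 3.19% to 6.48%), 1 UMI each in 1 bipolar-like and 1 glia-like barcode, and 0 in microglia-like barcodes.

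The genes of the LINC complex, in which SUN proteins of the inner membrane hold nesprins of the outer membrane, differed in where they were found. Sun1 (ENSMUSG00000036817, chromosome 5, 139200637 to 139249840, plus strand) was seen in 5 of 38 bipolar-like (13.2%, 4.41% to 28.1%) and 18 of 690 rod-like barcodes (2.61%, 1.55% to 4.09%). Their levels overlapped, with a log2 ratio of 0.75 (-0.41 to 1.69), and Sun1 had 0 UMIs in glia-like and microglia-like barcodes.

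Sun2 (ENSMUSG00000042524, chromosome 15, 79724070 to 79742536, minus strand) was the one member without a UMI in rods. It had 0 UMIs in 690 rod-like barcodes, which allows a share of up to 0.435% and a level of up to 1.53 CPM. In microglia-like barcodes it had 8 UMIs in 3 of 17 barcodes (17.6%, 3.80% to 43.4%), or 118 CPM (51.1 to 233), 77.1-fold the level that 0 allows in rods, and the interval of the log2 ratio began at 5.63. The 3 microglia-like barcodes carried 3 different tags, and held 3, 2 and 3 UMIs (tags 1, 2 and 3). In bipolar-like barcodes 1 of 38 held 4 UMIs, which is 8.10-fold the rod limit, and the interval of the log2 ratio began at 2.00. Median depths were 2431 UMIs in rod-like and 3372 in microglia-like barcodes. The 3 microglia-like barcodes with Sun2 were deeper, with 9027, 4741 and 5237 UMIs (tags 1, 2 and 3). Thinned to the same depth as for Lmnb2, Sun2 was in 1 of 13 microglia-like barcodes (7.69%, 0.195% to 36.0%) and 0 of 622 rod-like barcodes. That 0 allows a share of up to 0.482%, so the thinned shares overlapped.

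Syne2 (ENSMUSG00000063450, chromosome 12, 75818134 to 76110926, plus strand), which encodes the giant nesprin of the outer membrane that carries rod nuclei to their layer during development, had the opposite pattern. Its 163 UMIs lay in 40 rod-like barcodes (5.80%, 4.17% to 7.81%), and it had 0 UMIs in the 38 bipolar-like, 89 glia-like and 17 microglia-like barcodes. Its level of 83.3 CPM (71.0 to 97.2) in rods was 8.95-fold what 0 allows in bipolar-like, 3.94-fold what it allows in glia-like and 1.88-fold what it allows in microglia-like barcodes. That level rested mostly on tag 1, whose rods held 131 of the 163 UMIs, against 13 in tag 2 rods. Of the 38 bipolar-like barcodes, 29 were of tag 2 and 0 of tag 1, so class and tag are mixed here. By share, 0 of 38 bipolar-like barcodes allows up to 7.89%, above the 5.80% of rods. Median depths were 2431 UMIs in rod-like and 8994 in bipolar-like barcodes. Syne2 was uneven among rods too, since 1 of the 6 rod-like clusters, with 104 barcodes, held 88 of the 163 UMIs in 15 barcodes (14.4%, 8.30% to 22.7%).

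Ratios past 2-fold were common in these classes, and UMI sums and shares of barcodes did not always run the same way. With at least 10 UMIs over both classes, 5 of 9 members were past 2-fold between bipolar-like and rod-like barcodes, as were 56.2% of 9012 genes. These 5 (Lmnb1, Lbr, Tmpo, Banf1 and Syne2) were lower in the bipolar-like class (29.4% of genes), with intervals below 0, and 0 members were higher (26.8% of genes). By barcodes with a UMI it was 4 of 8 members beside 76.8% of 6727 genes: Lmnb2, Emd and Sun1 had the larger share in bipolar-like barcodes (70.5% of genes) and Syne2 the smaller (6.33%).

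Between glia-like and rod-like barcodes the ratios of all 9 measured members were past 2-fold, beside 71.1% of 8371 genes. Of these, 8 ran lower in the glia-like class (60.4% of genes), 7 of them with 0 UMIs there, so that the ratio rests on the 0.5 UMIs added. Intervals lay below 0 for Lmnb1, Lbr, Tmpo and Syne2 and included 0 for Lmna, Lmnb2, Banf1 and Sun1. Emd was higher (10.7% of genes). The large mitochondrial share of glia-like barcodes lowers their CPM in all these ratios. By barcodes with a UMI 7 of 8 members were past 2-fold beside 71.7% of 6022 genes, all with the smaller share in glia-like barcodes (69.5% of genes, and 2.14% with the larger).

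Between microglia-like and rod-like barcodes it was 6 of 9 members beside 60.4% of 8516 genes. Ratios ran lower for Lmnb1, Lbr, Banf1, Sun1 and Syne2 (35.9% of genes), with intervals below 0 for Lbr and Syne2 only, and higher for Lmnb2 (24.5%), whose interval included 0. By barcodes with a UMI, with 0.5 added to both counts, Lmnb1, Lmnb2 and Tmpo were past 2-fold, with larger shares in microglia-like barcodes. With the smaller share there were 0 members. Those past 2-fold were 3 of 8 members beside 45.9% of 6076 genes (34.4% larger and 11.4% smaller). Without the 0.5 added, the shares of Lmnb1 and Tmpo were less than 2-fold apart. Lmnb1 was in 1 microglia-like barcode, so its turn of direction from the UMI ratio shows no higher level.

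Rods of the tags were compared next. The filter stated for the study (200 to 2500 genes and at most 18% mitochondrial UMIs) and removal of doublets called by Scrublet left 188 rods in tag 1, 128 in tag 2 and 21 in tag 3, with 561992, 331067 and 59821 UMIs. Median depths were 2842, 2620 and 2579 UMIs per rod. Without the filter there were 255, 280 and 36 rods, with median mitochondrial shares of 12.1%, 18.2% and 13.7%. Of these unfiltered rods, 10 in tag 1, 0 in tag 2 and 1 in tag 3 had more than 8000 UMIs. The comparison is given with the filter first and then without it.

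**Figure D2:**
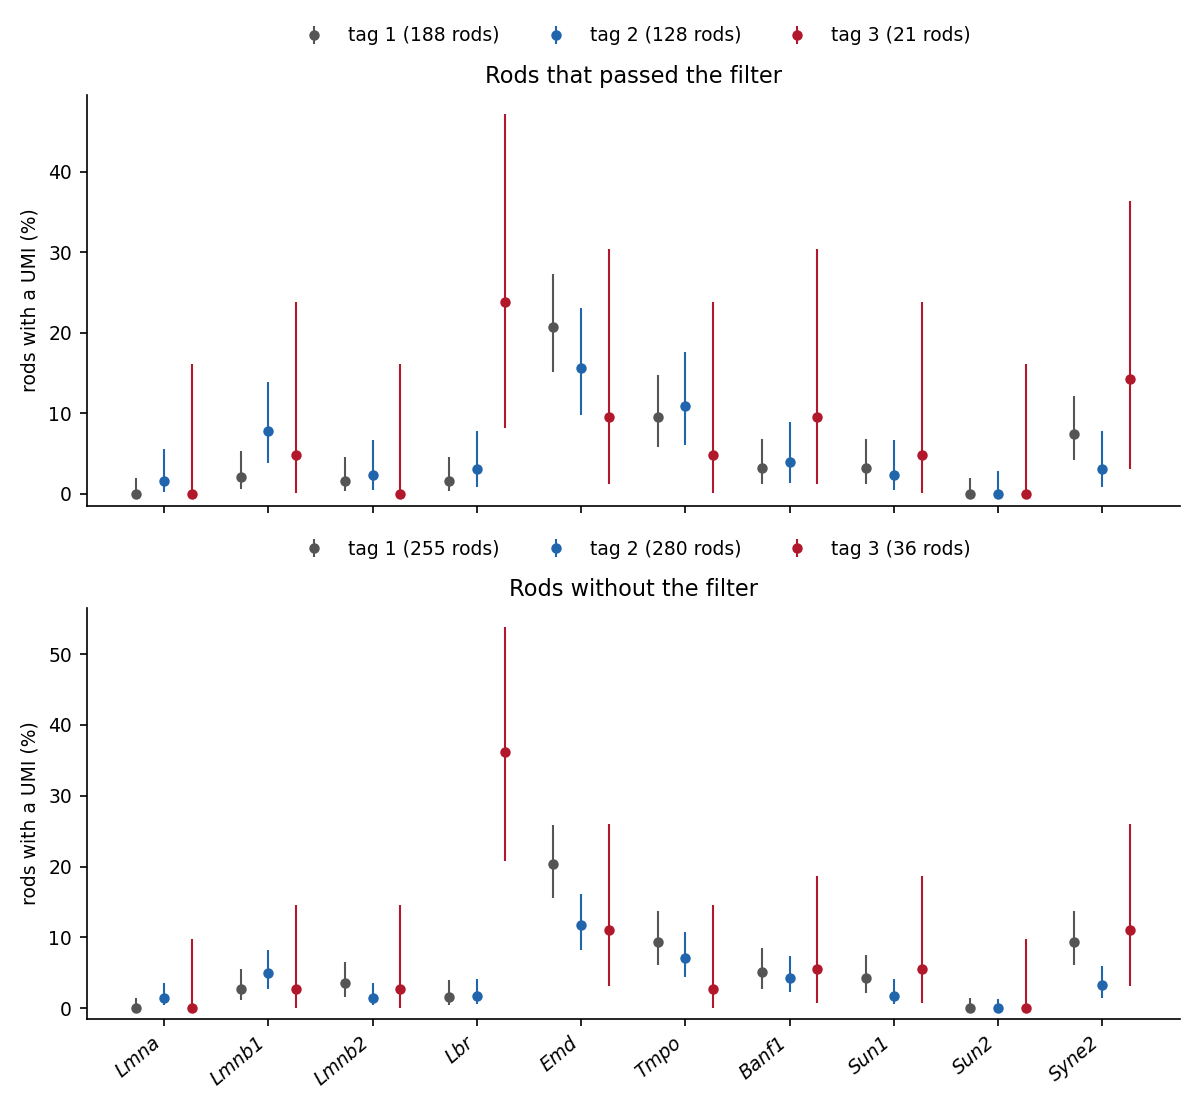
Percentage of rods with at least 1 UMI of each gene (y axis) in tags 1, 2 and 3, for rods that passed the filter (top) and without it (bottom). Points are shares and bars exact 95% intervals. Lbr in tag 3 is 23.8% with the filter and 36.1% without it, and its interval lies above those of tags 1 and 2 in both panels.

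Lbr was found in a larger share of rods in tag 3 than in the other tags. It had 8 UMIs in 3 of 188 tag 1 rods (1.60%, 0.330% to 4.59%), 11 UMIs in 4 of 128 tag 2 rods (3.13%, 0.858% to 7.81%) and 20 UMIs in 5 of 21 tag 3 rods (23.8%, 8.22% to 47.2%). The shares of tags 1 and 2 lay near the 2.63% of the bipolar-like class. That class is deeper, with a median of 8994 UMIs, and held 1 Lbr UMI in 1 barcode, so it is a weak reference. In CPM tags 1 and 2 ran higher than that class, with overlapping intervals. With so few positive rods, the counts of tags 1 and 2 are not read as expression, nor as its absence. The interval of tag 3 lay above those of tags 1 and 2, and its 334.3 CPM (204 to 516) lay above the 3.11 CPM (0.0786 to 17.3) of bipolar-like barcodes. The log2 ratio of UMIs was 4.50 (3.31 to 5.95) for tag 3 over tag 1 and 3.30 (2.20 to 4.54) for tag 3 over tag 2, whereas tag 2 over tag 1 gave 1.20 (-0.23 to 2.74).

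Each rod behind these sums can be listed. The 3 tag 1 rods held 4, 3 and 1 UMIs, and the 4 tag 2 rods held 4, 3, 3 and 1. The 5 tag 3 rods held 8, 6, 4, 1 and 1, so UMIs per rod overlap only in part between the tags. The difference lies in the share of rods with any and also in the highest rods, since no tag 1 or tag 2 rod held more than 4. The filter and the doublet caller removed further tag 3 rods with Lbr: 3 rods with 23, 11 and 3 UMIs were called doublets by Scrublet, and 5 rods with 6, 4, 3, 1 and 1 UMIs exceeded the mitochondrial limit. Without these steps Lbr had 72 UMIs in 13 of 36 tag 3 rods (36.1%, 20.8% to 53.8%), 14 UMIs in 5 of 280 tag 2 rods (1.79%, 0.582% to 4.12%) and 10 UMIs in 4 of 255 tag 1 rods (1.57%, 0.429% to 3.97%). The log2 ratio of tag 3 was then 6.13 (5.23 to 7.31) over tag 1 and 5.24 (4.44 to 6.22) over tag 2.

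Depths of these rods were compared. Rods of tag 3 with Lbr had a median of 2579 UMIs and those without it 2644, and after each rod was thinned to 1000 UMIs the shares were 19.0% in tag 3 (4 of 21, 5.45% to 41.9%), 1.61% in tag 2 (2 of 124, 0.196% to 5.70%) and 0.571% in tag 1 (1 of 175, 0.0145% to 3.14%), with 0, 4 and 13 shallower rods left out. The thinned intervals of tags 2 and 3 just overlapped. The tag counts of the same barcodes are given as a description only, since the calls derive from such counts. In tag 3 rods with Lbr, tag 3 made up 59.0% or more of the 3 tags' counts (median 86.5%). The 3 tag 1 rods with Lbr had 0 counts of tag 3, and those of tag 2 had at most 1.

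**Figure D3:**
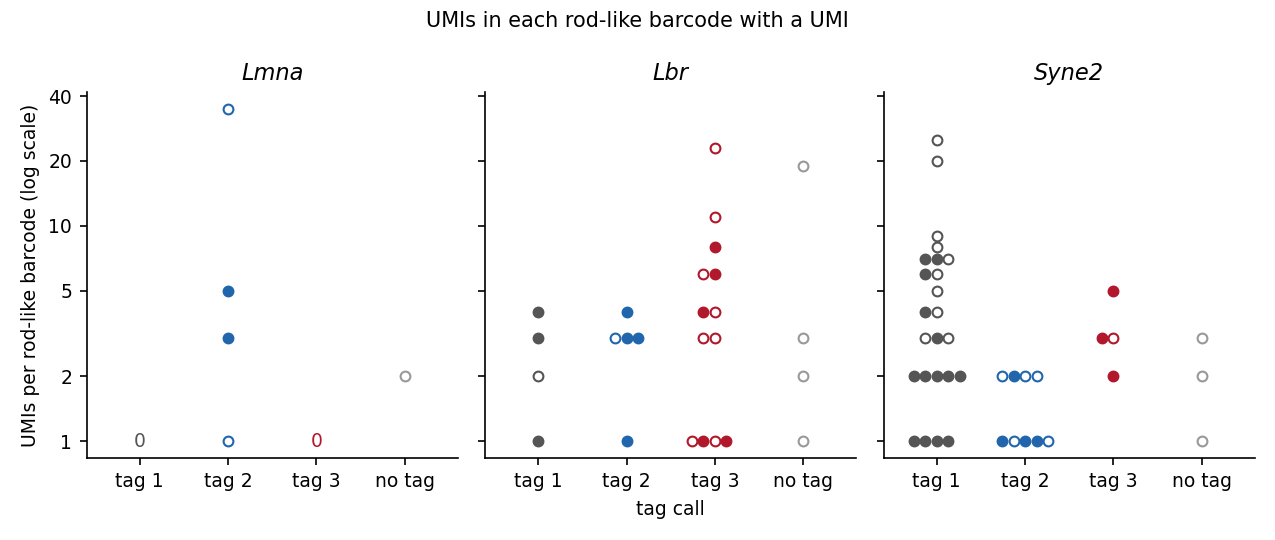
UMIs of Lmna, Lbr and Syne2 (y axis, log scale) in each rod-like barcode that held at least 1, by tag call (x axis). Filled points are rods used in the filtered comparison and open points are rods outside it, and 0 marks a tag without a UMI. Lmna is seen in tag 2 and 1 barcode without a tag, Lbr in 13 rods of tag 3 and at most 5 of another tag, and the highest Syne2 counts, of 25 and 20, are in tag 1.

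Lmna was found in tag 2 rods but in few of them. It had 8 UMIs in 2 of 128 tag 2 rods (1.56%, 0.190% to 5.53%), with 5 in one rod and 3 in the other, and 0 in 188 tag 1 rods and in 21 tag 3 rods. A count of 0 allows up to 1.60% of rods in tag 1 and 14.3% in tag 3, so the shares were not distinguishable at this depth. The level in tag 2 was 24.2 CPM (10.4 to 47.6), 4.53-fold what 0 allows in tag 1, whereas 0 allows 50.1 CPM in tag 3. Without the filter Lmna had 44 UMIs in 4 of 280 tag 2 rods (1.43%, 0.391% to 3.62%) and remained at 0 in 255 tag 1 rods and 36 of tag 3. The added rods held 35 and 1 UMIs. The rod with 35 had 3556 UMIs in all, 19.5% of them mitochondrial, so that it lay just past the limit of 18%.

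That 1 rod carried most of the signal. The unfiltered level of tag 2 was 19.7-fold what 0 allows in tag 1, and the other 3 positive rods held 5, 3 and 1 UMIs. All 4 rods had at least 12 of the 16 rod markers and 0 cone markers. Tag 2 made up 76.9% to 92.4% of their tag counts, from which the calls derive. In bipolar-like and microglia-like barcodes, the classes where Lmna was also seen, it was in 1 of 38 (2.63%) and 1 of 17 barcodes (5.88%) at higher median depth. The share in tag 2 rods did not exceed those. However, the bipolar-like barcode with Lmna was itself of tag 2, as were 29 of the 38, so that class is no reference outside tag 2. The microglia-like barcode was of tag 3.

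The ratios of the B-type lamin genes between tags moved with the filter. Lmnb1 had 22 UMIs in 4 tag 1 rods (2.13%, 0.583% to 5.36%), 26 in 10 tag 2 rods (7.81%, 3.81% to 13.9%) and 3 in 1 rod of tag 3 (4.76%, 0.120% to 23.8%). Between tags 2 and 1 the log2 ratio was 1.00 (0.13 to 1.89) with the filter and -0.04 (-0.73 to 0.62) without it, and the shares overlapped in both. Lmnb2 had 4 UMIs in 3 tag 1 rods, 11 in 3 tag 2 rods and 0 in tag 3, and its log2 ratio of tag 2 over tag 1 went from 2.12 (0.47 to 4.33) to -0.14 (-1.35 to 0.97) without the filter.

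The filter changed which tag 1 rods were counted for these genes. In unfiltered tag 1 rods, 4 of the 7 barcodes with Lmnb1 and 6 of the 9 with Lmnb2 had more than 8000 UMIs, and they held 26 of 47 and 14 of 18 UMIs. Such barcodes were absent from tag 2, where all positive rods had fewer than 8000 UMIs. The part of depth in these ratios was not tested.

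**Figure D4:**
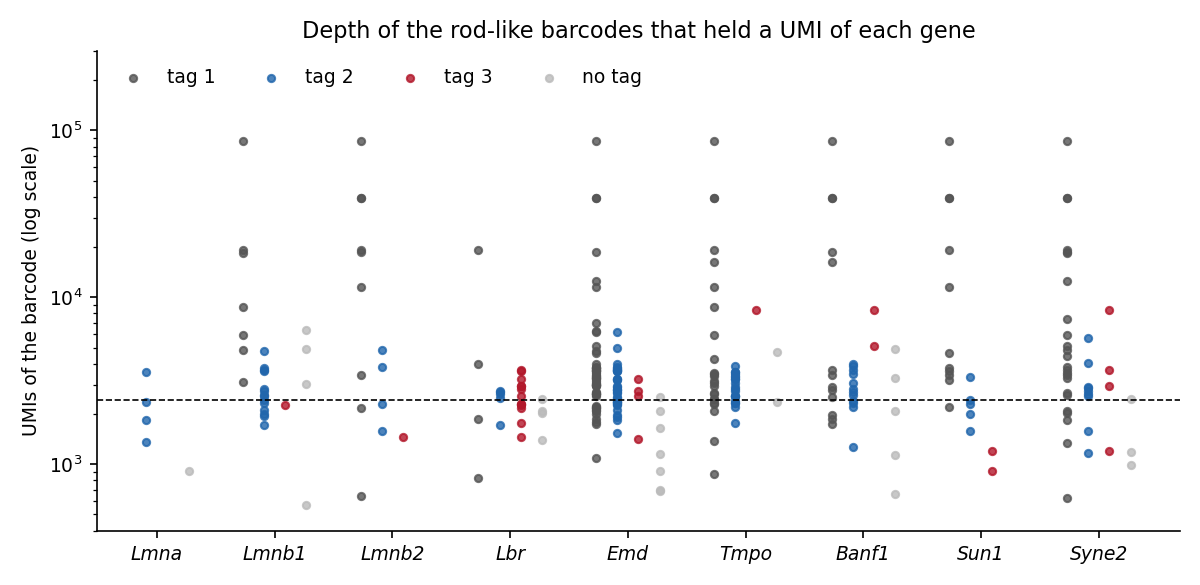
Total UMIs (y axis, log scale) of each rod-like barcode that held a UMI of a gene (x axis), by tag call, with no filter. The dashed line is the median of all rod-like barcodes, 2431 UMIs. Barcodes above 8000 UMIs are mostly in tag 1, while the rods with Lmna in tag 2 and with Lbr in tag 3 lie between 1350 and 3649 UMIs.

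Emd, Tmpo and Banf1 did not differ between tags beyond their intervals by rods with a UMI. Emd was seen in 39 of 188 rods (20.7%, 15.2% to 27.2%) in tag 1, in 20 of 128 rods (15.6%, 9.81% to 23.1%) in tag 2 and in 2 of 21 rods (9.52%, 1.18% to 30.4%) in tag 3. Its log2 ratio of UMIs was -0.16 (-0.95 to 0.57) for tag 2 over tag 1 and -0.99 (-4.38 to 0.64) for tag 3 over tag 1. Without the filter its shares were 20.4% (15.6% to 25.9%), 11.8% (8.25% to 16.2%) and 11.1% (3.11% to 26.1%). Emd stood out by its even spread, since 79 of the 96 rod-like barcodes with Emd held 1 UMI. Its 1.28 UMIs per positive barcode were as low in 1.34% of 2988 genes seen in a like number of rods.

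Tmpo and Banf1 had fewer positive rods. Tmpo was seen in 18 tag 1 rods (9.57%, 5.77% to 14.7%), 14 tag 2 rods (10.9%, 6.11% to 17.7%) and 1 tag 3 rod, where all 7 UMIs lay in 1 barcode of 8395 UMIs. Between tags 2 and 1 its log2 ratio was 0.80 (0.16 to 1.44) with the filter and 0.04 (-0.48 to 0.55) without it. Banf1 was seen in 6 tag 1 rods (3.19%), 5 of tag 2 (3.91%) and 2 of tag 3 (9.52%, 1.18% to 30.4%), with log2 ratios of 1.20 (-0.23 to 2.74) for tag 2 and 1.95 (-0.73 to 3.88) for tag 3 over tag 1. Without the filter it was in 13, 12 and 2 rods (5.10%, 4.29% and 5.56%).

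Of the LINC genes, Sun2 had 0 UMIs in all 3 tags, and the shares with Sun1 overlapped. Sun1 had 14 UMIs in 6 tag 1 rods (3.19%, 1.18% to 6.82%), 10 in 3 tag 2 rods (2.34%, 0.486% to 6.70%) and 3 in 1 rod of tag 3 (4.76%, 0.120% to 23.8%). All intervals of its ratios included 0. Without the filter it was in 11, 5 and 2 rods (4.31%, 1.79% and 5.56%), with overlapping intervals.

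Syne2 had fewer UMIs in tag 2 than in either other tag. It had 41 UMIs in 14 of 188 tag 1 rods (7.45%, 4.13% to 12.2%), 5 in 4 of 128 tag 2 rods (3.13%, 0.858% to 7.81%) and 10 in 3 of 21 tag 3 rods (14.3%, 3.05% to 36.3%). The shares overlapped, whereas the log2 ratio of UMIs was -2.15 (-3.97 to -0.93) for tag 2 over tag 1 and 3.40 (1.79 to 5.37) for tag 3 over tag 2. In tag 2 no rod held more than 2 UMIs, while tag 1 rods held up to 7 and tag 3 rods up to 5.

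Without the filter the difference in Syne2 between tags 1 and 2 was larger, with 131 UMIs in 24 of 255 tag 1 rods (9.41%, 6.12% to 13.7%) and 13 in 9 of 280 tag 2 rods (3.21%, 1.48% to 6.01%), a log2 ratio of -2.86 (-3.86 to -2.09). In tag 3 there were 13 UMIs in 4 of 36 rods (11.1%, 3.11% to 26.1%), and the log2 ratio of tag 3 over tag 1 went from 1.25 (0.03 to 2.22) with the filter to 0.05 (-0.94 to 0.83). When only filtered barcodes were clustered, tag 3 kept 12 rods with 0 UMIs of Syne2. Deep barcodes contributed: 7 tag 1 rods with more than 8000 UMIs held 74 of its 131 UMIs, and 57 UMIs remained without barcodes of that depth, against 13 in tag 2. With each rod thinned to 1000 UMIs, Syne2 was seen in 4.0% of tag 1 rods (7 of 175, 1.62% to 8.07%) and 2.42% of tag 2 rods (3 of 124, 0.502% to 6.91%), which overlapped. The nuclear RNA Malat1 had 3308 UMIs in 24 of 188 filtered tag 1 rods and 144 in 32 of 128 in tag 2, so that its UMI sum was higher in tag 1 and its share of rods in tag 2, and its part in the Syne2 difference was not tested. Summed cone marker levels in filtered rods also ran in the order of Syne2, at 2215, 63.4 and 6302 CPM in tags 1, 2 and 3. Of the filtered rods, 4 in tag 1, 0 in tag 2 and 1 in tag 3 held 4 or more cone markers. Without these barcodes Syne2 had the same 41, 5 and 10 UMIs. The part of cone transcripts in the Syne2 difference was not tested.

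Ratios past 2-fold were common among all genes between the tags. For tag 2 over tag 1, 4 of 8 members with at least 10 UMIs were past 2-fold beside 35.2% of 6187 genes, with a median log2 ratio of 0.90 over members and -0.13 over all genes. Ratios ran higher in tag 2 for Lmnb2, Lbr and Banf1 (13.3% of genes), with intervals that included 0 for Lbr and Banf1, and Syne2 was lower (21.9%). For tag 3 over tag 1 it was 4 of 7 members beside 62.1% of 5377 genes, with medians of 1.18 and -0.47. Ratios ran higher in tag 3 for Lbr, Banf1, Sun1 and Syne2 (19.1% of genes), with intervals that included 0 for Banf1 and Sun1, and lower for 0 members (43.0%). For tag 3 over tag 2 it was 3 of 8 members beside 56.0% of 4044 genes, with medians of 0.33 and -0.19. Lbr and Syne2 were higher in tag 3 (21.3% of genes). The ratio of Lmnb2 ran lower (34.7% of genes) but rested on 0 UMIs in 21 rods, which shows no decrease. Without the filter it was 2 of 9 members for tag 2 over tag 1 (Lmna and Syne2, beside 34.7% of 7880 genes, medians -0.04 and -0.31), 1 of 8 for tag 3 over tag 1 (Lbr, beside 61.1% of 7169 genes, medians 0.04 and -0.68) and 4 of 9 for tag 3 over tag 2 (Lmna, Lbr, Sun1 and Syne2, beside 55.4% of 5621 genes). These comparisons share tags and are not independent. By rods with a UMI, 2 of 5 members were past 2-fold for tag 2 over tag 1 (Lmnb1 higher, Syne2 lower) against 15.1% of genes, 1 of 3 for tag 3 over tag 1 (Syne2) against 30.2%, and 0 of 3 for tag 3 over tag 2 against 25.1%. These ratios have 0.5 added to both counts, and that of Syne2 for tag 3 over tag 1 was under 2-fold without it. Lbr was not among the members counted, because its positive rods were fewer than 10. Its log2 share ratios were 3.81 and 2.90 for tag 3 over tags 1 and 2. Without the filter Lbr was counted. There, 2 of 7 members were past 2-fold for tag 3 over tag 1 (Lbr higher, Tmpo lower) against 30.4%. For tag 3 over tag 2 it was 2 of 6 (Lbr and Syne2 higher) against 29.9%. For tag 2 over tag 1, where Lbr still had fewer than 10 positive rods, it was 3 of 7 (Lmnb2, Sun1 and Syne2, all lower) against 26.3%.

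**Figure D5:**
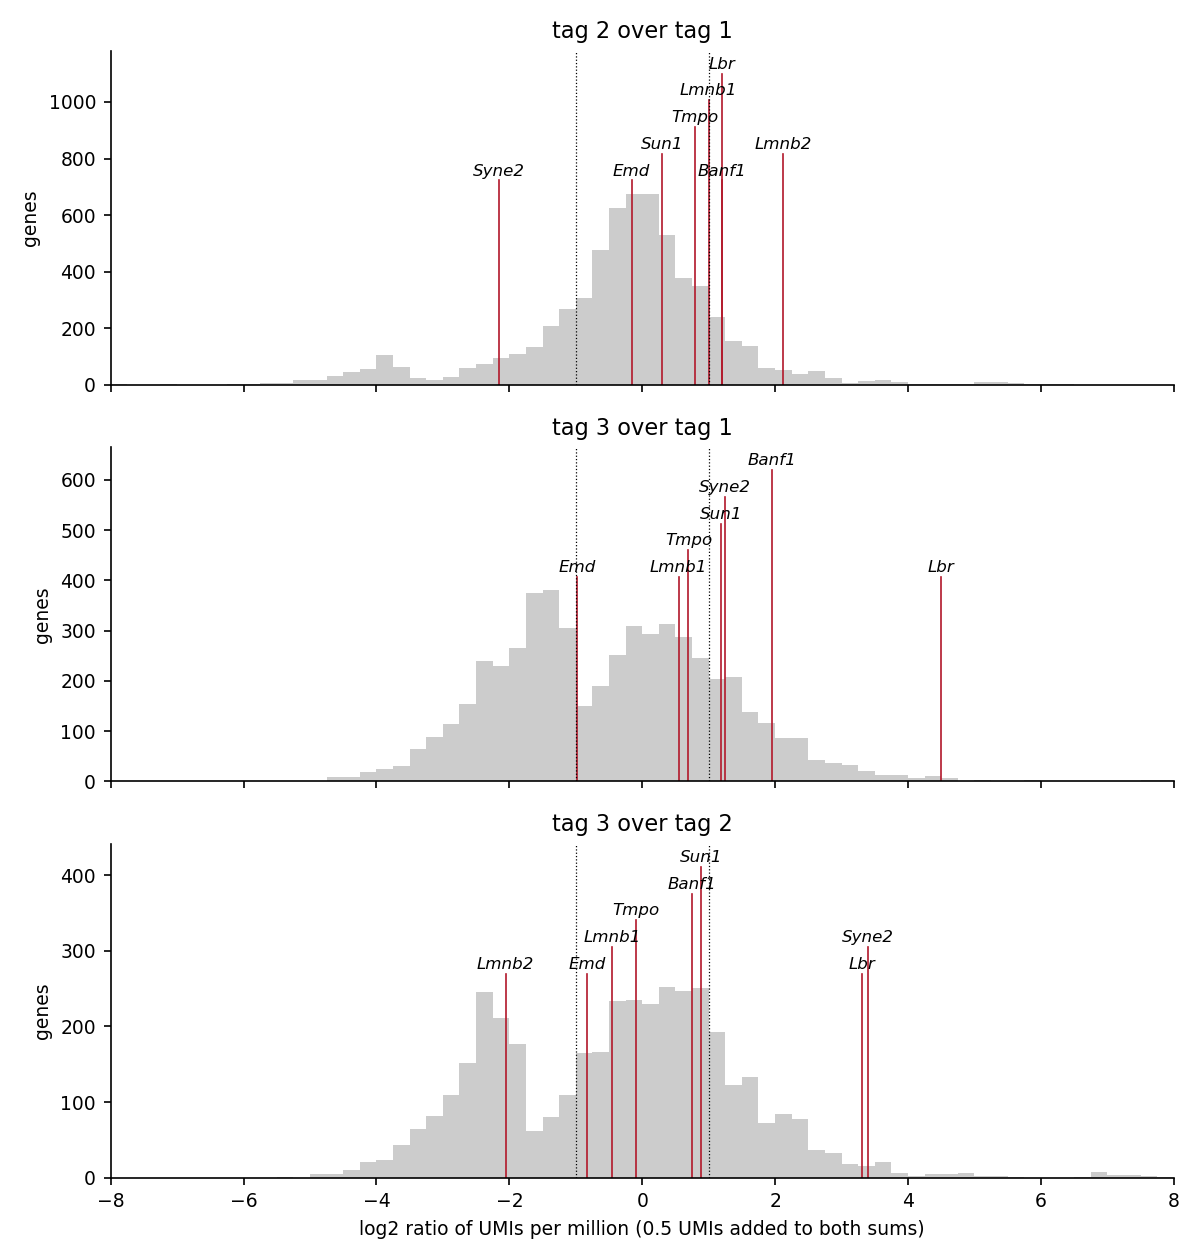
Number of genes (y axis) by log2 ratio of CPM between tags (x axis) in filtered rods, for genes with at least 10 UMIs over both tags. Red lines mark members with that many UMIs, dotted lines 2-fold, and 2 genes in each of the lower panels lie outside the axis. Lbr lies at 4.50 in the middle panel, and the other members there lie between -0.99 and 1.95.

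Other envelope genes were sparse too. Of 30 further genes (other LEM proteins, torsins and their partners, nesprins, lamin-processing enzymes and chromatin partners of the lamina), 26 had at least 1 UMI in rod-like barcodes, and Syne4, Sun3, Sun5 and Mlip had 0. In filtered rods 4 of 14 measured members of this list were past 2-fold for tag 2 over tag 1, beside 35.2% of all genes, 9 of 11 for tag 3 over tag 1 beside 62.1%, and 2 of 7 for tag 3 over tag 2 beside 56.0%.

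Genes of this set with a UMI in at least 20 rod-like barcodes were Casz1 (145 barcodes), Icmt (102), Nrm (92), Syne1 (58), Rce1 (48), Tor1aip1 (27), Fnta (21) and Tmem201 (20). Casz1, a zinc finger protein that acts in rod nuclear organisation, was seen in 27.1% of tag 1 rods (51 of 188, 20.9% to 34.1%), 21.1% of tag 2 rods (27 of 128, 14.4% to 29.2%) and 9.52% of the tag 3 rods (2 of 21, 1.18% to 30.4%). Its log2 ratio of UMIs was -1.37 (-3.15 to -0.24) for tag 3 over tag 1. Icmt, the methyltransferase that modifies farnesylated prelamin A among other proteins, was seen in 13.3% of tag 1 rods (25), 12.5% of tag 2 (16) and 28.6% of tag 3 (6 of 21, 11.3% to 52.2%), and its log2 ratio was 1.67 (0.84 to 2.40) for tag 3 over tag 1. Rce1, the protease of the same pathway, had 34, 23 and 0 UMIs in the 3 tags. The 0 rests on 21 rods, and the upper end of its log2 ratio for tag 3 was 0.11 over tag 1 and -0.05 over tag 2. Syne1, the other giant nesprin, was in 16 of 38 bipolar-like barcodes (42.1%), where Syne2 had no UMI, and in 58 of 690 rod-like barcodes (8.41%, 6.45% to 10.7%).

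Within single rods the members were seldom found together. Of 690 rod-like barcodes, 455 held none of the 10 genes and 45 held 2 or more. The barcode with most members, 7, was also a very deep one of tag 1, with 85822 UMIs. Lmna and Lbr were never found in the same rod-like barcode, with 5 and 26 positive barcodes, a pair for which 0.188 joint barcodes would be met if presence were independent, so that the absence carries no information. Lmnb2 and Sun1 were together in 5 barcodes, with 14 and 18 positive barcodes each, where 0.365 would be met if presence were independent. Deep barcodes enter all such pairs.

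Correlations of presence over the 690 rod-like barcodes were low, and depth enters all of them. The genes most like Syne2 were Dcaf17 (r = 0.33), Mir124a-1hg (0.30) and Usp32 (0.29). Those most like Lmnb1 were Snrnp200 (0.28), Bub3 (0.28) and Usp8 (0.27), those most like Banf1 were Actr1b (0.27), Ctr9 (0.27) and Acbd5 (0.26), and those most like Tmpo were Chd3os (0.24), Abi1 (0.23) and Casz1 (0.23). No gene reached 0.2 with Lbr or Emd. These values are descriptions of 1 pool.

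Exons of 7 members overlap those of other genes in the annotation, among them Lbr with Dnah14 (440 bases) and Banf1 with Eif1ad (428 bases) on the opposite strand, and Emd with the pseudogene Gm14686 (343 bases) on the same strand. The sources used here do not state how the counting treated reads from such stretches, so the counts of Emd and its pseudogene in particular cannot be fully told apart.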

How the data were processed

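Single-cell RNA of 1 pool of mouse retinal cells was measured in an expression library and a tag library. The authors made the deposited UMI counts per gene and barcode, not normalized, with Cell Ranger against mm10. Per the labels the version was 6.1.2, whereas the matrix header gives 3.1.0, and the sources used here do not state the annotation release. The deposited tag matrix holds counts per tag and barcode. A further deposited table gives the authors' tag call per barcode, which was used, and the probabilities behind it, which were not. No deposited per-sample column was left unmapped (0).

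Counts were read as deposited. Genes seen in at least 3 barcodes were scaled to 10000 UMIs per barcode and log-transformed, and all barcodes were clustered on the 2000 most variable genes (30 principal components, 15 neighbours, Leiden resolution 1, scanpy 1.11.5). The 10 genes, the wider list of 30 genes, haemoglobin genes, Malat1 and the 13 mitochondrial genes were kept out. The 9 clusters were named from marker lists, by the number of markers among the 10 leading genes, then by the share of markers detected in 25% or more of the barcodes, with at least 3 detected. Class names were thus rebuilt here, whereas the study took them from a trained classifier, and the results can differ for that reason. Of all barcodes, 409 passed the filter, and Scrublet (expected rate 6%) marked 29 of these, which left 380. Deposited doublet calls were never part of a tag. A log2 ratio compares 2 sums per 1000000 UMIs with 0.5 UMIs added to both. A ratio of shares has 0.5 added to both counts of barcodes. Intervals are Clopper-Pearson for shares, exact Poisson for sums and exact conditional for ratios, at 95%. A count of 0 allows up to 3 counts. Ratios past 2-fold were counted over genes with at least 10 UMIs (or barcodes with a UMI) over both groups. For thinned shares each barcode was drawn down to 1000 UMIs. The ratio and its interval were tested on simulated data. Gene positions are from GENCODE release M21 on mm10, in which 99.6% of the 31053 gene identifiers were found.

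The 10 genes and all lists were chosen with earlier results of these data known. The text names all 10 members, genes of the wider list with a UMI in at least 20 rod-like barcodes, and the 3 genes most like each member with a UMI in at least 20 rod-like barcodes, where r was 0.2 or more. With 1 pool per tag no test was possible. Alternatives changed the filter, doublet removal, tag call (at least 70% of at least 5 counts), counting, scale, added UMIs, class and clustering.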

Additional observations from a re-analysis of the deposited data

Results flagged for a closer look

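Rod-like barcodes without a tag call entered no comparison between tags, yet they held UMIs of 5 members above the 3 counts that 0 allows. Of these 119 barcodes, 100 were not in the tag matrix, 18 were called doublets and 1 negative. Lbr had 25 UMIs in 4 of them: 19 and 1 in 2 barcodes called doublets, in both of which tag 3 had the largest count (57 of the 3 tags' counts in the first and 159 in the second), and 3 and 2 in 2 barcodes not in the tag matrix. Banf1 had 21 UMIs in 5 barcodes and Lmnb1 13 UMIs in 4. Emd had 8 UMIs in 7 barcodes and Syne2 6 UMIs in 3. Which group these barcodes came from cannot be told from the calls.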

How the results depend on the processing

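Lbr was higher in tag 3 than in tags 1 and 2 under all 12 alternatives. Its log2 ratio over tag 1 ran from 3.94 (each gene counted once per rod) to 6.13 (no filter on cells) and was 6.09 without the filter and without barcodes over 8000 UMIs. Over tag 2 it ran from 2.80 to 5.37, with 5.24 for no filter, 4.60 with Scrublet calls kept and 5.37 without the filter and without barcodes over 8000 UMIs. The latter setting and that on cone markers were chosen after seeing the data. Lmna UMIs in rods of tag 2, 8 in the main count, were 44 without the filter, with or without barcodes over 8000 UMIs, 2 when each rod counted once and 3 without the rod with most UMIs. Some ratios changed sign: Lmnb2 for tag 2 over tag 1 was -0.14 without the filter. For tag 3 over tag 1, Sun1 was -0.65 without the rod with most UMIs in each tag and -0.99 when only filtered barcodes were clustered, where Syne2 was -2.24 with 12 rods left in tag 3. The first setting removed the 1 tag 3 rod with Sun1, and Syne2 had 0 UMIs in those 12 rods. These 2 values rest on the 0.5 UMIs added and show no decrease. With 1 count per gene and barcode, Lmna in glia-like over rod-like barcodes was 0.88 and Lmnb1 in microglia-like over rod-like barcodes 0.82. Lmna had 0 UMIs in glia-like barcodes, so its value rests on the 0.5 added and shows no higher level. Lmnb1 was in 1 microglia-like barcode. For the other changes of sign the causes were not tested. With a minimum of 20 in place of 10, fewer genes were tested, and the genes past 2-fold numbered 1182, 1889 and 1101 by UMIs and 149, 250 and 164 by rods with a UMI (tag 2 over 1, 3 over 1 and 3 over 2), and 3322 and 1842 by barcodes with a UMI for bipolar-like and microglia-like over rod-like barcodes. At clustering resolution 0.5 the microglia-like barcodes merged with the glia-like ones, so that class had no value. No paired analysis was possible because each tag is 1 pool of cells without replicate numbers. The number of rods and their depth limit all shares: 0 of 21 rods in tag 3 still allows a share of up to 14.3%.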
